A study of Mus musculus with 6 samples.

Results

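The mitochondrially encoded genes are the 37 genes of the deposited table whose symbol starts with mt-, out of 28945 genes in all. They comprise 13 protein genes, 2 rRNA genes and 22 tRNA genes, which are all 37 genes that the GENCODE M21 annotation of GRCm38 places on mouse chromosome M. RNA came from CD4+ T cells purified from spleen, with 3 libraries from C57BL/6J animals, called CONT, and 3 from db/db animals, called DM, in which the leptin receptor is mutated and obesity and diabetes follow. The strain background of the db/db mice, their age and whether a library is 1 animal or a pool are not given in the labels, so p-values measure only library-to-library spread, part or all of which may be technical. The comparison asks how the RNA of these cells differed between the db/db and the control mice.

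The mitochondrial genome is a small circle of DNA that is kept outside the nucleus and is transcribed and translated inside the organelle. It encodes core subunits of the respiratory chain and of ATP synthase, together with the rRNAs and tRNAs needed to translate them. Both strands are copied into long precursor RNAs, and in mammals the tRNAs lie between most of the other genes, so that cutting them out frees the mRNAs and rRNAs on either side. CD4+ T cells draw on this respiratory chain for ATP and for biosynthesis when they are activated.

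The deposited values were read as FPKM, fragments divided by transcript length and by library size, a unit taken from the values themselves, so that levels of different genes are compared per length. Read totals were not at hand, and the precision that depth gives each value is unknown. Relative depth, read from the smallest steps of low values, ran from 0.798 in CONT replicate 1 to 1.12 in CONT replicate 2. In DM it covered 0.991 to 1.07. Larger steps did nearly as well, as described under the processing, so these values depend on the step chosen in each library. The 0.798 of CONT replicate 1 therefore cannot show that this library was less deep. All FPKM of a library summed to 248070, 327172 and 369531 over the CONT libraries and to values from 385070 to 410282 over the DM libraries, so that the groups were apart in total FPKM (two-sided exact permutation p = 0.1, n = 3 each). Markers of other blood cells were 42 genes, none at 0 in every library. Their sum ran from 301 to 617 FPKM over the CONT libraries and from 992 to 8372 FPKM over the DM libraries. Of 41 tested, 39 had a log2 fold change above 0, against 48.8% of all genes tested. The test described below passed 8, against 1.52%. Erythroid markers made up 5129 of the 8372 FPKM, those of DM replicate 3. Sums of erythroid markers overlapped between groups, as did those of B cell and of natural killer cell markers. The natural killer cell markers Klrb1c and Eomes had log2 fold changes below 0, at -1.25 and -0.37. Summed basophil or mast cell markers did not overlap, at 2.29 to 6.65 and 66.8 to 331 FPKM. The 6 CD4 T cell markers ran from 1351 to 1656 FPKM over the CONT libraries and from 880 to 1268 FPKM over the DM libraries. Cd4 ran from 149 to 220 FPKM and from 82.4 to 134 FPKM, and no CD4 T cell marker was at 0 in every library. In 4 of the 6 every DM library was below every CONT library, against 13.2% of all genes tested. In Cd3d and Cd3g the groups overlapped, with log2 fold changes of -0.03 and 0.20. None of the 6 passed the test described below. The part of these markers in the results below was not tested. In such bulk samples fewer cells of a type and less RNA per cell cannot be told apart.

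Of the 37 mitochondrial genes, 1 passed the test: mt-Tc, the tRNA gene for cysteine, rose in DM. The other 36 did not pass, among them all 13 protein genes and both rRNA genes. The test was limma on log2(FPKM + 1) over the 13106 genes with a mean of at least 1 FPKM in a group, at a Benjamini-Hochberg adjusted p below 0.05. It called 1.52% of all genes tested, 1.27% as higher and 0.252% as lower in DM. Fold changes on this scale understate the change of low genes. All 37 mitochondrial genes reached the level tested, mt-Tf, the phenylalanine tRNA gene, only through its DM mean of 1.01 FPKM. Log2 fold changes were above 0 for 35 of the 37, with a median of 0.63, where 48.8% of all genes tested were above 0 and their median was -0.01; with each library scaled to its total FPKM, which moved the median of all genes to -0.32, 28 of 36 were above 0, mt-Tf being below the level tested. Without CONT replicate 1 the median of the 37 was 0.40, with 32 above 0. The DM libraries lay entirely above the CONT libraries for 13 of the 37 genes, against 13.8% of all genes tested, and entirely below for 1, against 13.2%. For either direction this makes 14 of 37, against 27.1% of all genes tested. An unadjusted p below 0.05 was found for 11 of the 37, against 16% of all genes tested, and 10 of the 37 had such a p and were higher in DM, against 9.77% of all genes tested.

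**Figure D1:**
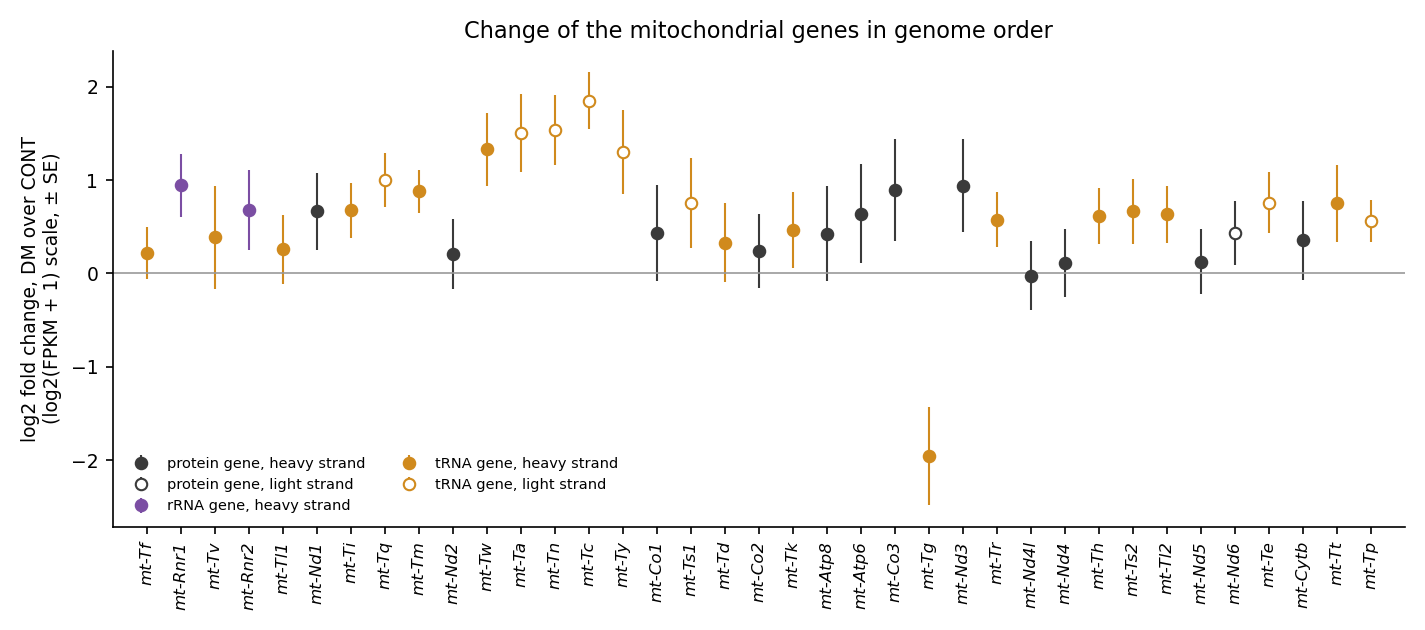
Log2 fold change of DM over CONT for each mitochondrial gene, on the log2(FPKM + 1) scale with its SE from limma, in the order of the genes on the mitochondrial genome. Filled points are genes read from the heavy strand and open points genes read from the light strand; the 5 tRNA genes from mt-Tw to mt-Ty lie between 1.30 and 1.85, and mt-Tg alone is far below 0, at -1.95.

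The tRNA genes held the largest differences in both directions. A run of 5 tRNA genes between mt-Nd2 and mt-Co1, for tryptophan (mt-Tw), alanine (mt-Ta), asparagine (mt-Tn), cysteine (mt-Tc) and tyrosine (mt-Ty), had the 5 largest log2 fold changes of the 37, and the glycine tRNA gene mt-Tg had the only value far below 0. Without CONT replicate 1 the median of the 5 was 1.02, against 1.51 with it, and the order changed: mt-Ty was at 0.77, below the 0.80 of mt-Tq. In mammals this run holds the origin from which light-strand DNA is copied, in the gap between mt-Tn and mt-Tc, which is 32 bases here. The run was singled out after its values were seen, so no test was made on it as a group. The sequences of these 6 tRNA genes, from the GENCODE M21 transcripts on GRCm38, are given 5′ to 3′ on the strand of the gene, because these genes had the largest differences. Heavy-strand genes are those on the plus strand of the reference, and capitals mark the anticodon.
mt-Tw (chromosome M, 4950 to 5016, heavy strand): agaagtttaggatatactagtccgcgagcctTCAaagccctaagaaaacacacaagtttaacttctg
mt-Ta (chromosome M, 5018 to 5086, light strand): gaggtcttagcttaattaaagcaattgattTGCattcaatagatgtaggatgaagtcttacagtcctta
mt-Tn (chromosome M, 5089 to 5159, light strand): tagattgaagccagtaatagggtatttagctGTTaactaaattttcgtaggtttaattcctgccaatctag
mt-Tc (chromosome M, 5192 to 5257, light strand): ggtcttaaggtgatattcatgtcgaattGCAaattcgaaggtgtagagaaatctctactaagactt
mt-Ty (chromosome M, 5260 to 5326, light strand): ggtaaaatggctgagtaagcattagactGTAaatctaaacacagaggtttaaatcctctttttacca
mt-Tg (chromosome M, 9391 to 9458, heavy strand): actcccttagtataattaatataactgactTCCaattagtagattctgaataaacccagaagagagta

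The tRNA genes are 59 to 75 bases long, and 35 of the 36 pairs of neighbouring mitochondrial genes overlap or lie within 5 bases of each other. A fragment longer than a tRNA therefore reaches into its neighbours. How such fragments were shared out, and whether the counting used strand, is given in none of the sources used here, so a tRNA value cannot be told apart from precursor RNA or from RNA of the opposite strand.

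mt-Tc measured 7.01, 15.7 and 14.5 FPKM in CONT replicates 1, 2 and 3, and 42.0, 48.5 and 44.5 FPKM in DM replicates 1, 2 and 3, the order kept for all values below. Every DM library was above every CONT library, and the 3 DM values lay close together. The group means were 12.4 ± 4.73 and 45.0 ± 3.26 FPKM (SD, n = 3), which gave a log2 fold change of 1.85 with an SE of 0.31 and a Benjamini-Hochberg adjusted p of 0.0385 in limma. In the authors' deposited table its fold change was 3.62, with a q-value of 0.00349, the only q-value below 0.05 among the 37 genes. That table nevertheless flags 6 of the 37 as significant: mt-Tw, mt-Ta, mt-Tn, mt-Tc, mt-Ty and mt-Tg. The rule behind the flag is not given, and the share of all genes so flagged was not computed. The log2 fold change stayed between 1.51 and 2.04 with each library left out in turn, but the call was lost without CONT replicate 3 (adjusted p = 0.0825) and without DM replicate 1, 2 or 3 (adjusted p = 0.140, 0.105 and 0.137; limma, Benjamini-Hochberg). All such fits rest on 5 libraries instead of 6. With median-of-ratios scaling the adjusted p was 0.0677, and with no filter on low values it was 0.136 (limma, Benjamini-Hochberg).

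Next to it, mt-Tn measured 12.8, 29.2 and 36.5 FPKM over the CONT libraries and 71.5, 75.7 and 66.7 FPKM over the DM libraries. On the other side of mt-Tn, mt-Ta measured 11.6, 30.1 and 37.8 FPKM over the CONT libraries and 76.1, 71.7 and 60.7 FPKM over the DM libraries. These neighbours had nearly the same level in each library: mt-Ta was at 89.99 to 106 per 100 FPKM of mt-Tn. In both genes the groups were apart and CONT replicate 1 was far lower than the other controls. The log2 fold changes were 1.53 ± 0.37 for mt-Tn and 1.51 ± 0.42 for mt-Ta (SE), with adjusted p of 0.119 and 0.163 (limma, Benjamini-Hochberg).

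The tyrosine gene mt-Ty measured 5.58, 20.7 and 17.1 FPKM over the CONT libraries and 32.7, 41.6 and 25.9 FPKM over the DM libraries. mt-Tw, the one gene of the run on the heavy strand, measured 6.26, 15.7 and 17.7 FPKM over the CONT libraries and 41.4, 32.0 and 24.6 FPKM over the DM libraries. For these 2 genes as well no CONT library reached the lowest DM library. Their log2 fold changes were 1.30 ± 0.45 and 1.33 ± 0.39 (SE), with adjusted p of 0.256 and 0.190 (limma, Benjamini-Hochberg).

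Set against mt-Co1, the cytochrome c oxidase subunit gene that follows the run, the 5 genes can be compared inside each library, whatever the scaling between libraries. mt-Tc had 0.0755, 0.103 and 0.0815 FPKM per 100 FPKM of mt-Co1 in CONT and 0.193, 0.262 and 0.286 in DM. For mt-Tn the ratio was 0.138 to 0.205 in CONT and 0.328 to 0.429 in DM, and for mt-Ta 0.125 to 0.212 and 0.349 to 0.391. mt-Tw stood at 0.0674 to 0.103 in CONT and 0.158 to 0.190 in DM, and mt-Ty at 0.0602 to 0.136 and 0.150 to 0.225. In none of the 5 did the groups overlap on this ratio, but all 5 were already apart in FPKM. How often genes in general are apart on such a ratio was not computed. The level of mt-Co1 also carries the limit of its nuclear copy, described below. With 3 libraries against 3 an exact permutation test cannot give a p below 0.1, and none was run on these ratios, which were chosen after the values were seen.

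**Figure D2:**
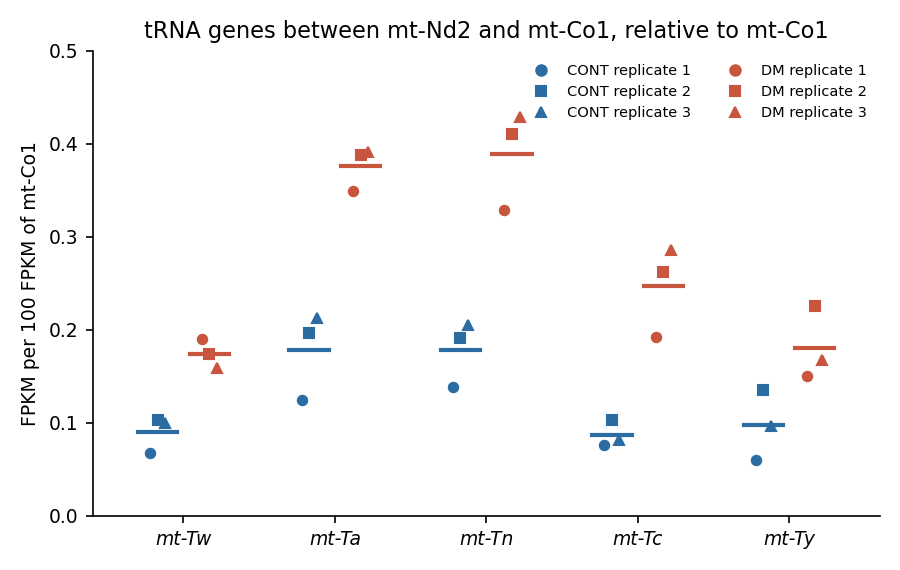
FPKM of the 5 tRNA genes between mt-Nd2 and mt-Co1 per 100 FPKM of mt-Co1, in each library, with the mean of each group as a line. All DM libraries lie above all CONT libraries in each gene, by the smallest margin in mt-Ty (0.150 against 0.136).

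mt-Tg, which lies between the genes for cytochrome c oxidase subunit mt-Co3 and complex I subunit mt-Nd3, measured 9.56, 16.7 and 15.8 FPKM over the CONT libraries and 7.95, 1.12 and 1.87 FPKM over the DM libraries. Every DM library was below every CONT library, although DM replicate 1 came close to CONT replicate 1. The log2 fold change was -1.95 ± 0.53 (SE) and did not pass (limma adjusted p = 0.153, Benjamini-Hochberg). Its neighbours did not share this pattern: per 100 FPKM of mt-Co3, mt-Tg was at 0.609, 0.438 and 0.325 in CONT and at 0.116, 0.0189 and 0.0410 in DM, while mt-Nd3 stood at 8.04 to 9.82 per 100 FPKM of mt-Co3 over all 6 libraries. With each library left out in turn the log2 fold change of mt-Tg ran from -2.57 to -1.53.

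Among the remaining tRNA genes, the levels spanned more than those of the protein genes. mt-Ts1, for serine, was the most abundant tRNA gene, at 401, 739 and 1271 FPKM over CONT and 1396, 1225 and 1060 FPKM in DM, and made up 46.5% to 59.1% of all tRNA FPKM in a library. It lies opposite to the end of mt-Co1, which it overlaps by 3 bases, and was at 4.32 to 7.14 per 100 FPKM of mt-Co1. The leucine gene mt-Tl1, between mt-Rnr2 and mt-Nd1, had group means of 272 ± 98.2 and 311 ± 36.4 FPKM in CONT and DM (SD, n = 3). The glutamate gene mt-Te was at 161 ± 50.1 and 268 ± 42.9 FPKM, and the proline gene mt-Tp at 71.1 ± 3.54 and 106 ± 10.4 FPKM (SD, n = 3). The groups were apart in mt-Te and mt-Tp and overlapped in mt-Ts1 and mt-Tl1, and none of these 4 passed the test (limma adjusted p 0.296 to 0.677, Benjamini-Hochberg).

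Before mt-Nd2, the glutamine gene mt-Tq and the methionine gene mt-Tm were also higher in each DM library than in any control. mt-Tq measured 2.64, 5.82 and 3.59 FPKM over the CONT libraries and 10.97, 9.31 and 6.44 FPKM over the DM libraries, and mt-Tm measured 6.84, 11.1 and 7.38 FPKM and 18.5, 16.7 and 13.4 FPKM. Neither passed (limma adjusted p = 0.181 and 0.147, Benjamini-Hochberg). The abutting genes mt-Th, mt-Ts2 and mt-Tl2, for histidine, serine and leucine, moved together from library to library: mt-Ts2 was at 79.8 to 97.3 and mt-Tl2 at 60.9 to 69.3 per 100 FPKM of mt-Th, and in all 3 genes DM replicate 1 was the highest library. The arginine gene mt-Tr, next to mt-Nd4l, had DM libraries at 10.47 to 21.8 FPKM, just above the controls at 7.49 to 9.64 FPKM. The threonine, lysine, aspartate and isoleucine genes mt-Tt, mt-Tk, mt-Td and mt-Ti had control means of 7.30, 11.3, 3.53 and 2.69 FPKM and DM means of 11.95, 14.4, 4.25 and 4.85 FPKM, with overlapping groups. At the low end were mt-Tf, with group means of 0.691 and 1.01 FPKM in CONT and DM, and the valine gene mt-Tv, with 2.74 ± 2.52 and 3.11 ± 1.001 FPKM (SD, n = 3).

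**Figure D3:**
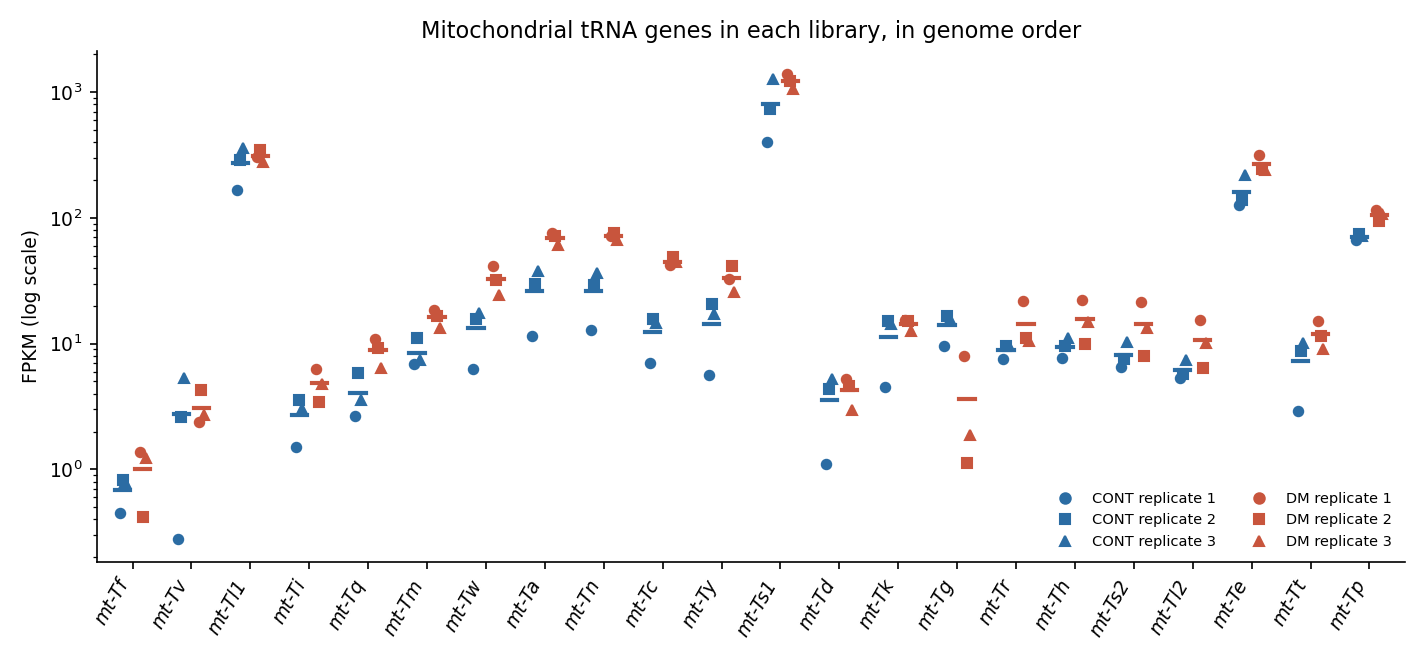
FPKM of the 22 mitochondrial tRNA genes in each library on a log scale, in genome order, with the mean of each group as a line. Group means run from 0.691 FPKM in mt-Tf to 1227 FPKM in mt-Ts1, and CONT replicate 1 is the lowest library in 20 of the 22 genes. In shares of all FPKM, not drawn here, it is the lowest in 12 of the 22.

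The 22 tRNA genes together had a median of 0.67 in log2 fold change; 21 were above 0 and 1 passed. The 8 tRNA genes read from the light strand had a median of 1.15 and the 14 read from the heavy strand 0.60. This split follows the run in part, since 4 of its 5 genes are on the light strand; the 17 tRNA genes outside the run had a median of 0.62. The difference between the strands was not tested.

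None of the 13 protein genes passed the test, and none had an unadjusted p below 0.05 (limma). Of the 13, 12 had a log2 fold change above 0, with a median of 0.43; with total scaling 7 did, and the median was 0.07. Most abundant was mt-Co1, the catalytic subunit of cytochrome c oxidase (complex IV), at 9281, 15261 and 17804 FPKM over CONT and 21796, 18464 and 15529 FPKM in DM. The highest control was above the lowest DM library, and the log2 fold change of 0.44 ± 0.52 (SE) was within its error. The ATP synthase genes mt-Atp8 and mt-Atp6 followed, with group means of 7643 ± 2598 and 9976 ± 2215 FPKM for mt-Atp8 and 6284 ± 2697 and 9233 ± 1986 FPKM for mt-Atp6 (SD, n = 3). The lowest protein gene was mt-Nd3, a small membrane subunit of complex I, at 132, 306 and 476 FPKM over the CONT libraries and 578, 539 and 440 FPKM over the DM libraries.

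Complex I genes differed in whether the groups overlapped. mt-Nd1 measured 2165, 2853 and 3462 FPKM over the CONT libraries and 5119, 4239 and 3918 FPKM over the DM libraries, so that the groups were apart. The same held for mt-Nd6, the only protein gene read from the light strand, at 1037, 996 and 1244 FPKM over CONT and 1664, 1378 and 1378 FPKM in DM. These 2 of the 13 protein genes are near the share of all genes tested that were entirely above in DM, 13.8%. In shares of all FPKM 1 of the 13 was entirely above, against 7.45%. With total scaling the log2 fold change of mt-Nd6 was 0.076. In the other 5 complex I genes, mt-Nd2, mt-Nd3, mt-Nd4l, mt-Nd4 and mt-Nd5, the groups overlapped. Group means in CONT and DM were 1733 ± 191 and 2019 ± 408 FPKM for mt-Nd2 and 1713 ± 91.6 and 1869 ± 321 FPKM for mt-Nd4 (SD, n = 3). For mt-Nd5 they were 1480 ± 140 and 1619 ± 182 FPKM, and for mt-Nd4l 1193 ± 261 and 1166 ± 193 FPKM (SD, n = 3). The log2 fold changes of mt-Nd1 and mt-Nd6 were 0.66 ± 0.41 and 0.43 ± 0.34 (SE), with adjusted p of 0.392 and 0.471 (limma, Benjamini-Hochberg). mt-Nd3 had the largest value of the 13, 0.94 ± 0.49 (SE), and mt-Nd4l the smallest, -0.02 ± 0.37 (SE). Without CONT replicate 1 mt-Nd3 was at 0.43, below mt-Nd1 at 0.48.

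Among the genes of the other complexes, mt-Co3 measured 1571, 3810 and 4851 FPKM over the CONT libraries and 6882, 5924 and 4551 FPKM over the DM libraries. mt-Co2, which carries the copper site that takes electrons from cytochrome c, differed less, with group means of 3275 ± 288 and 3885 ± 627 FPKM (SD, n = 3). mt-Cytb, the cytochrome b subunit of complex III, was at 3645 ± 776 and 4629 ± 849 FPKM (SD, n = 3). In all 3 genes the groups overlapped.

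The size of the difference in the protein genes depended on 1 library of each group. CONT replicate 1 was the lowest library in 9 of the 13 protein genes, and without it the median log2 fold change was 0.17, with 13 of 13 above 0. That library also had the lowest total FPKM, 248070. In shares of all FPKM it was the lowest library in 5 of the 13 protein genes and the highest in 6. DM replicate 1 was the highest library in 12 of the 13, and without it the median was 0.27, with 11 of 13 above 0. The protein genes of CONT replicate 1 also had another composition: mt-Nd4l made up 4.23% of its mitochondrial protein FPKM, against 1.57% to 2.27% in the other 5 libraries, and mt-Nd5, a further complex I subunit, 4.74% against 2.28% to 2.77%. mt-Co3 made up 4.56%, against 7.31% to 9.33%, and mt-Nd3 0.384%, against 0.587% to 0.849%. The same library had the highest level of the nuclear RNA Malat1, 429 FPKM, against 64.0 to 124 FPKM in the other 5. Malat1, the nuclear RNA Neat1 and the leucyl-tRNA synthetase gene Lars2, the 3 genes with the smallest p in a list on RNA quality, had log2 fold changes of -1.12, -0.62 and 0.34, and none of the 5 tested genes of that list passed. The part of that library's RNA quality or depth in these values was not tested.

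**Figure D4:**
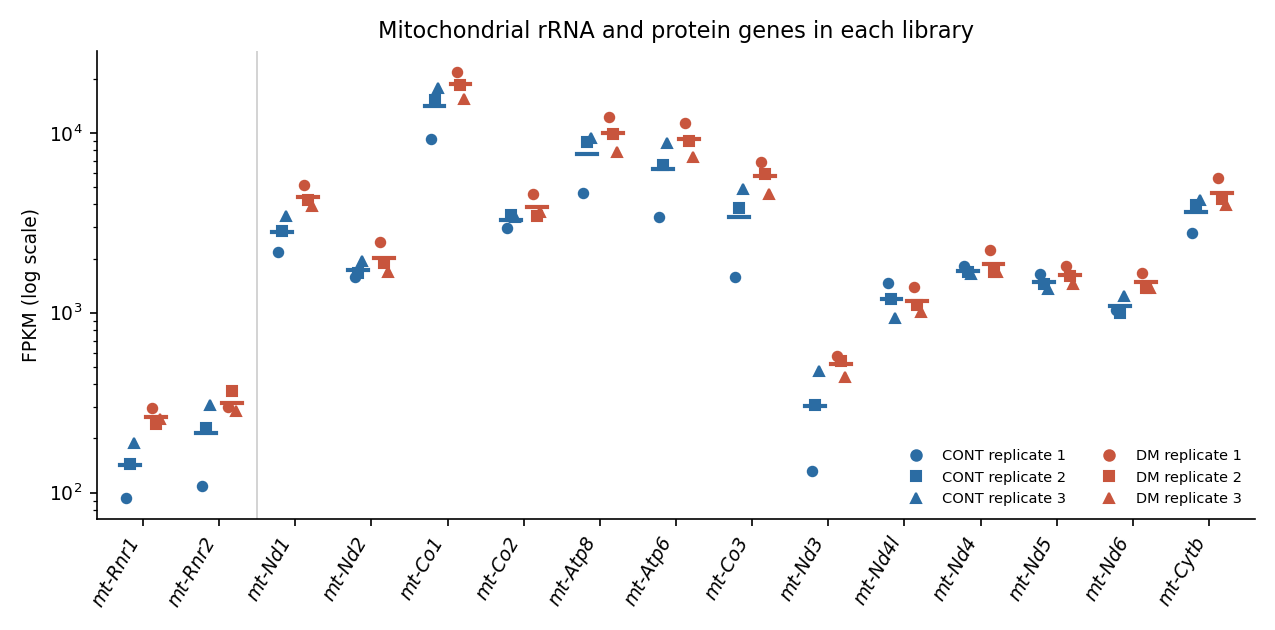
FPKM of the 2 rRNA and 13 protein genes in each library on a log scale, in genome order, with the mean of each group as a line. CONT replicate 1 (blue circles) is the lowest library in 11 of these 15 genes, and in mt-Nd4l it is the highest. In shares of all FPKM, not drawn here, it is the lowest in 5 of the 13 protein genes and the highest in 6.

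The 2 rRNA genes, for the small (mt-Rnr1) and large (mt-Rnr2) mitochondrial ribosomal subunits, had lower mean levels per length than any protein gene of the same group, mt-Nd3 being the nearest. mt-Rnr1 measured 93.7, 144 and 189 FPKM over the CONT libraries and 297, 241 and 255 FPKM over the DM libraries, with the groups apart. mt-Rnr2 measured 108, 228 and 306 FPKM over the CONT libraries and 300.2, 366 and 284 FPKM over the DM libraries, with the groups overlapping. Their log2 fold changes were 0.94 ± 0.34 and 0.68 ± 0.43 (SE), with adjusted p of 0.266 and 0.395 (limma, Benjamini-Hochberg). Without CONT replicate 1 the log2 fold change of mt-Rnr2 was 0.25 and that of mt-Rnr1 0.67. The labels do not say whether rRNA was depleted or polyadenylated RNA selected, so these levels need not reflect those in the cell.

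The classes were also compared as shares of all FPKM in a library, which need no scaling between libraries. Protein genes took 13.9%, 15.9% and 16.1% in CONT and 18.9%, 15.9% and 14.1% in DM, with overlapping groups and a two-sided exact permutation p of 0.6 (n = 3 each). rRNA genes took 0.0814%, 0.114% and 0.134% in CONT and 0.146%, 0.153% and 0.140% in DM. Here the groups were apart, and the exact permutation p of 0.1 is the smallest that 3 libraries against 3 allow. With genes weighted by length the groups overlapped (exact permutation p = 0.2, n = 3 each), and without CONT replicate 1 the difference was 0.0221 percentage points, against 0.0363 with it. tRNA genes took 0.347%, 0.444% and 0.582% in CONT and 0.624%, 0.574% and 0.523% in DM (exact permutation p = 0.3, n = 3 each). The protein share was 1.02 percentage points higher in DM on average, and without DM replicate 1 the difference was -0.277.

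Ratios between the classes overlapped too. Per 100 FPKM of protein genes, rRNA genes had 0.586, 0.714 and 0.833 FPKM in CONT and 0.769, 0.957 and 0.992 FPKM in DM (exact permutation p = 0.2 on the log2 ratio, n = 3 each). mt-Nd6 made up 2.34% ± 0.59 of protein FPKM in CONT and 2.28% ± 0.217 in DM (SD, n = 3; exact permutation p = 1.0). In shares of all FPKM, gene by gene, the DM libraries were entirely above the CONT libraries for 9 of the 37 genes, against 7.45% of all genes tested, and entirely below for 1, against 24%. The 9 include all 5 tRNA genes between mt-Nd2 and mt-Co1.

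Part of the mitochondrial genome also has a copy in the nucleus, and the deposited table lists both. On chromosome 1, between 24611535 and 24616197 on GRCm38, 7 annotated pseudogenes matched a mitochondrial gene at 99% identity or more over at least 90% of their length, and 5 of them matched at 100%. Gm28437, the copy of mt-Co3, was listed at 100.1% to 100.8% of the FPKM of mt-Co3 in each of the 6 libraries. For Gm28661, the copy of mt-Co2, the range was 100.1% to 100.7%, for Gm10222, the copy of mt-Nd4l, 102% to 103%, and for Gm10925, the copy of mt-Atp6, 107% to 109%. The copies of mt-Nd3 and mt-Nd4, Gm28438 and Gm28439, were at 95.3% to 103% and 63.1% to 76.3%. Gm29216, the copy of a part of mt-Co1, was at 16.4% to 29.1% of it. By contrast, 3 further unprocessed pseudogenes on chromosome 2, at lower identity, were at no more than 0.65% of their mitochondrial counterpart.

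The levels of mt-Co1, mt-Co2, mt-Co3, mt-Atp6, mt-Nd3, mt-Nd4 and mt-Nd4l are thus uncertain, since reads of the copied stretches match both places and the sources used here do not give the treatment of such reads. The copies follow each other in the order of the mitochondrial genes, with 69 bases between those of mt-Nd3 and mt-Co3, where mt-Tg lies on chromosome M, and 74 bases between those of mt-Nd4l and mt-Nd3, where mt-Tr lies. Whether these gaps, and those between the copies that flank mt-Atp8, mt-Tk, mt-Td and mt-Ts1, hold copies of those genes was not tested, so the values of these 6 genes carry the same limit. The 7 copies took 5.15%, 6.18% and 6.87% of all FPKM in CONT and 7.89%, 6.78% and 5.90% in DM. Of the 7 copies, none passed the test, 5 had a log2 fold change above 0, and the median was 0.62. Those with the smallest p were Gm28438, the copy of mt-Nd3, Gm28437 and Gm29216. Their log2 fold changes were 1.03, 0.88 and 0.75, beside 0.94, 0.89 and 0.44 of mt-Nd3, mt-Co3 and mt-Co1.

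**Figure D5:**
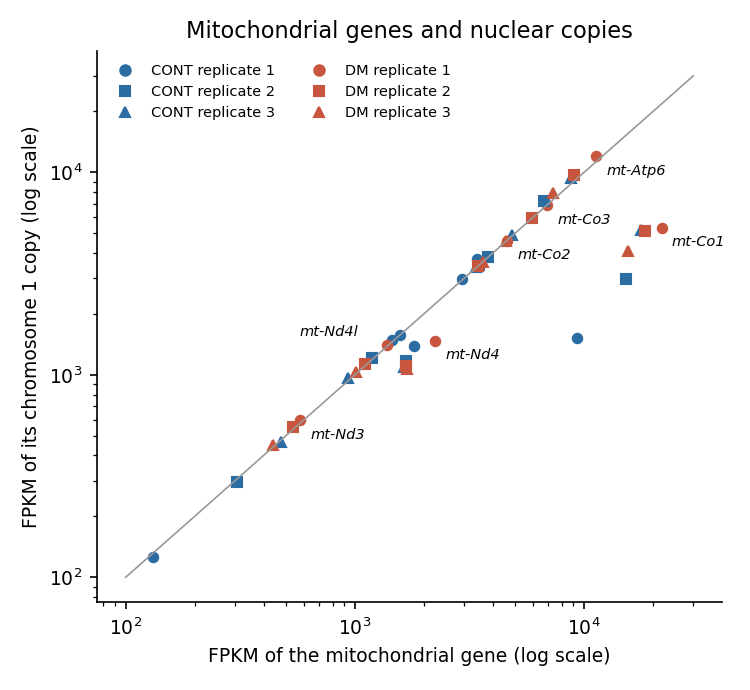
FPKM of 7 mitochondrial genes against the FPKM of their near-identical copies on chromosome 1, in each library, on log scales; the line marks equal values. The copies of mt-Nd3, mt-Nd4l, mt-Co2, mt-Co3 and mt-Atp6 lie along the line, and those of mt-Nd4 and mt-Co1 below it.

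Nuclear genes that express and complete the mitochondrial genome were read for the same contrast. Of 86 tested genes for its transcription, RNA processing and translation, none passed in either direction in limma; 5 had an unadjusted p below 0.05, a smaller share than over all genes tested, 45 were above 0, and the median was 0.04 on the log2 scale. Polrmt, the mitochondrial RNA polymerase, averaged 5.97 ± 1.17 and 3.90 ± 0.128 FPKM in CONT and DM (SD, n = 3), and its limma adjusted p was 0.291. Slirp, which stabilises mitochondrial mRNAs together with Lrpprc, averaged 2.27 ± 1.40 and 5.85 ± 2.26 FPKM, with a limma adjusted p of 0.259, and Lrpprc 7.38 ± 1.02 and 6.94 ± 1.85 FPKM. Tfam, which packages mitochondrial DNA, was at 13.7 ± 3.15 and 17.2 ± 3.09 FPKM. Elac2, which cuts tRNAs out of the precursor at the 3′ end, and Trmt10c, a subunit of the RNase P that cuts the 5′ end, were at 10.8 ± 1.87 and 8.89 ± 0.198 FPKM and at 17.1 ± 6.80 and 19.3 ± 3.46 FPKM (SD, n = 3). Mtfmt, which formylates the initiator tRNA, and Mtrf1, a release factor, had log2 fold changes of -0.69 and 0.61 without passing.

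Of 79 tested nuclear genes for respiratory chain and ATP synthase subunits, none passed and 75 had a log2 fold change above 0, against 48.8% of all genes tested, with a median of 0.69. An unadjusted p below 0.05 (limma) was found for 11 of the 79, a smaller share than the 16% of all genes tested. The DM libraries lay entirely above the CONT libraries for 29 of the 79, against 13.8% of all genes tested. They lay entirely below for 1, against 13.2%. The complex I gene Ndufs5 averaged 8.73 ± 4.01 and 2.23 ± 0.631 FPKM in CONT and DM, the complex III gene Uqcrq 11.2 ± 6.24 and 32.3 ± 7.19 FPKM, and the complex IV gene Cox6c 14.3 ± 7.95 and 31.6 ± 7.05 FPKM (SD, n = 3). With total scaling, and without CONT replicate 1, Ndufs5 passed (limma adjusted p = 0.0304 and 0.0167, Benjamini-Hochberg). In the same 2 settings the log2 fold change of Uqcrq was 1.27 and 1.09, against 1.59 in the main test. That of Cox6c was 0.90 and 0.76, against 1.23. The counts over the 79 genes are for FPKM without scaling between libraries. Summed over the list, CONT replicate 1 was again lowest, at 1280 FPKM, against 2750 to 4535 FPKM in the other 5 libraries. Of 38 tested genes that assemble the mitochondrially encoded subunits none passed, and the median was 0.16. Of 78 tested mitochondrial ribosomal protein genes none passed, 69 were above 0, against 48.8% of all genes tested, and the median was 0.39. The DM libraries lay entirely above for 11 of the 78, near the 13.8% of all genes tested, and entirely below for 2, against 13.2%. An unadjusted p below 0.05 (limma) was found for 5 of the 78, against 16%. The smallest p in that list were those of Mrpl54, Mrpl33 and Mrpl20, with log2 fold changes of 0.75, 0.82 and 1.28 and adjusted p of 0.203, 0.226 and 0.292 (limma, Benjamini-Hochberg).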

How the data were processed

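Total RNA of splenic CD4+ T cells was extracted with Trizol and sequenced on Illumina libraries, per the labels' protocols. Per the submitters' processing notes, the build was GRCm38, and cutadapt 1.9 and FastQC were among the tools; the sources used here do not give the aligner or quantifier. The deposited table is called a count table, but its values are not whole, have library sums that differ, and low values step with transcript length, so they were taken as FPKM; the unit is inferred. The authors' deposited table also holds p-values and q-values, a ratio (fold change) of group means and its log2, from a test that is not given. It further flags genes as significant, by a rule that is not given.

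For the test, limma 3.58.1 (R 4.3.3) was fitted to log2(FPKM + 1), using a trended, robust prior variance and no covariate, over all genes with a mean of at least 1 FPKM in a group. Values were used as deposited, without further scaling. Other scalings, filters and pseudocounts, a replicate block and leaving out each library were tried; shares without the nuclear copies were an alternative chosen after seeing the data. The procedure was also run on simulated data with planted changes and a spread drawn independently for each gene. Such data hold no outlying library and no linked neighbouring genes, so they do not test the procedure for these. Low values of genes with 1 transcript, times length, fell within 0.02 of a whole step for 16.1% to 19.2% of values, and steps 5/4 as large did nearly as well, so fragment counts were not recovered. Shares were compared with exact permutation tests (scipy 1.17.1). Nuclear copies were found with blastn 2.17.0; their thresholds were chosen after seeing the data. Named genes are all members plus, per nuclear list, the 3 with the smallest p and 6 fixed genes. The members and lists were chosen with earlier results of these data known. Figures used matplotlib 3.10.9.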

Additional observations from a re-analysis of the deposited data

How the results depend on the processing

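The count of tRNA genes past the test was 1; it was 0 with median-of-ratios scaling, 0 with no filter on low values, 0 to 1 with each library left out, and 10 at an unadjusted p below 0.05, where rRNA genes gave 1; the cause was not tested, beyond the fewer samples or more genes in some fits. No protein gene passed in any limma setting run. Over its settings the adjusted p of mt-Tc ran from 0.0133 to 0.140 (limma, Benjamini-Hochberg), 0.0677 with median-of-ratios scaling and 0.136 with no filter. Replicate numbers are shared by CONT and DM. Same-numbered libraries did not deviate together (correlations -0.382 to -0.203), and 0 libraries correlated best with their own number. The numbers were not used as pairs in the main test. Deviations from means of 3 libraries constrain such correlations, so they cannot show whether the numbers reflect a shared batch. With the replicate block mt-Tc had an adjusted p of 0.0479 (limma) and 204 genes passed, against 199. Total scaling put the median of all genes at -0.32 (log2); mt-Tl1, mt-Nd2, mt-Co2, mt-Nd4, mt-Nd5, mt-Cytb, Tfam and Trmt10c, none of them past the test, were then at -0.096, -0.15, -0.12, -0.24, -0.23, -0.0030, -0.012 and -0.098, and leaving the mt- genes out of the total gave mt-Tl1 -0.075, mt-Nd2 -0.13, mt-Co2 -0.097, mt-Nd4 -0.22, mt-Nd5 -0.21 and Trmt10c -0.079. mt-Nd4l was at 0.0059 with median-of-ratios and 0.031 with upper quartile scaling. With each library left out, log2 fold changes ran from -0.25 to 0.90 for mt-Tv, -0.059 to 0.50 for mt-Tl1, -0.15 to 0.63 for mt-Td, -0.035 to 0.73 for mt-Tk, -0.19 to 0.13 for mt-Nd4l, -0.024 to 0.18 for mt-Nd4, -0.26 to 0.075 for Lrpprc and -0.13 to 0.45 for Trmt10c. With each library left out, the protein share difference ran from -0.277 to 2.12 percentage points and that of mt-Nd6 from -0.268 to 0.282. Other denominators and weighting by length kept the direction of each share, with the protein share difference at 1.25 to 2.65. Ndufs5 passed under total scaling and without CONT replicate 1. Depth is unknown, so counting error of the lowest tRNA genes could not be given.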
